A study of Homo sapiens with 12 samples.

Results

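The 47 genes described here encode the non-collagen part of the extracellular matrix, namely matrix glycoproteins, laminin chains and proteoglycan core proteins. They were chosen by gene name from both deposited RNA-seq tables, joined on the gene identifier. Each of the 47 names had 1 row in both tables, out of 60558 identifiers that the tables share. The libraries came from MDA-MB-231, an established human triple-negative breast cancer (TNBC) cell line. NONO is a paraspeckle protein that binds RNA and DNA, and PKM2 is a splice form of pyruvate kinase. The study knocked down each of them to look for transcripts that both control. One experiment compared 3 NONO_KD libraries with 3 NC libraries, and the other compared 3 PKM2_KD libraries with 3 NC libraries of its own. The study's methods describe transient transfection with negative control siRNA or with siRNAs to each target, without saying which one was used for these libraries. The control cells carry the label WT, the labels give no time or dose, and nothing in them says whether the repeats came from separate cultures. P values therefore measure only the spread between these libraries, which may be technical.

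The extracellular matrix is the protein and sugar meshwork that cells secrete and attach to. Laminins are trimers of an alpha, a beta and a gamma chain. They form the sheet of the basement membrane, which nidogens and the heparan sulfate proteoglycan perlecan tie to type IV collagen, and which epithelial cells grip through integrins and dystroglycan. Fibronectin, tenascin C and thrombospondins belong to the provisional and matricellular matrix that is known for its part in tumor cell adhesion and migration, and fibrillins and fibulins build elastic fibres.

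Library totals of estimated counts ran from 19861762 to 20981712 around the NONO knockdown and from 24097948 to 28455268 around the PKM2 knockdown. NONO was at 391, 358 and 369 CPM (counts scaled to the library total after TMM normalization) in its NC libraries and at 61.8, 64.3 and 61.9 CPM in the NONO_KD libraries. PKM, whose count does not separate PKM2 from PKM1, was at 2276, 2211 and 2324 CPM in NC and at 218, 228 and 234 CPM in the PKM2_KD libraries. Both targets were thus lower in every knockdown library. All 5 markers taken for a triple-negative line (VIM, CD44, KRT18, EGFR and AXL) were detected, and of 5 luminal and receptor markers ESR1, PGR and CDH1 were too low to test. The other 2, ERBB2 and GATA3, were expressed (the 5 summed to between 29.6 and 39.5 TPM in NC), and both were called lower after PKM2 knockdown and GATA3 also after NONO knockdown. The 9 markers of blood, endothelial, mural and smooth muscle cells summed to 2.01 to 3.16 TPM in NC and 2.12 to 4.13 TPM after NONO knockdown, and to 3.59 to 4.09 TPM in NC and 1.48 to 3.43 TPM after PKM2 knockdown. CD3E was at 0 in every library, 1 of 3 markers tested was called higher after NONO knockdown and 1 of 4 lower after PKM2 knockdown, and their part in the results was not tested. The libraries NC 1 (NONO experiment) and PKM2_KD 3 differed more from their replicates than other pairs did (chi-square per degree of freedom of 8.90 to 13.2, against 2.34 to 4.42 for the other pairs), and counts are given without them where they matter. The experiments shared no library, so a difference between the knockdowns and a difference between the experiments cannot be told apart.

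Levels of different genes were compared in TPM (a share of transcripts, set per transcript length), as the mean over the 6 NC libraries with the lowest and highest in brackets. The tables were normalized separately, so levels across them are only set side by side. IGFBP4, a secreted binder of insulin-like growth factors, was highest with 238 TPM (196 to 274). LAMC1, the gamma chain shared by most laminins, had 164 TPM (151 to 184), SPARC had 151 TPM (127 to 175), LAMB2 had 139.5 TPM (122 to 168) and LAMA5 had 129.9 TPM (85.4 to 186). LAMB3 had 123 TPM (109.5 to 139). The NC range of IGFBP4 lay above those of these 5 genes, whose own ranges overlapped, except that LAMB3 lay below LAMC1, so most of their order is not resolved. FN1 followed at 92.6 TPM (73.3 to 104) and AGRN at 73.1 TPM (65.1 to 86). Low on the scale came MATN3 at 1.02 TPM (0.72 to 1.59), VCAN at 0.527 TPM (0.21 to 1.17) and LAMA2 at 0.502 TPM (0.12 to 1.22). The plot of NC levels shows 34 members.

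**Figure D1:**
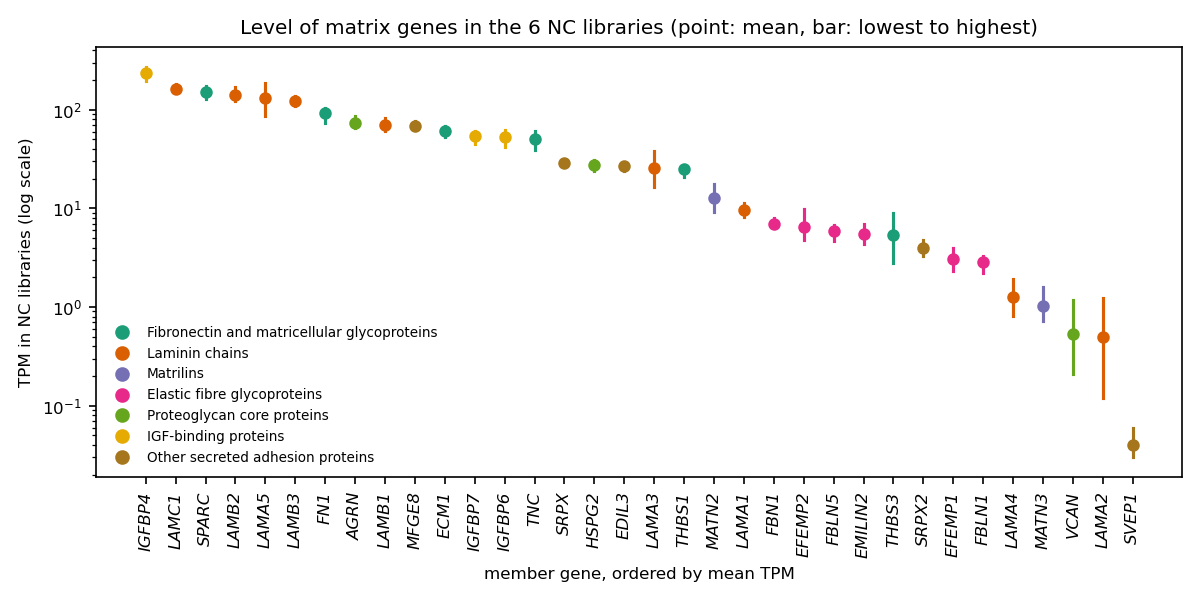
TPM (log axis) of the 34 members tested in either experiment, in order of their mean over the 6 NC libraries; points are means, bars run from the lowest to the highest library and colours mark the role. The levels run from 238 TPM for IGFBP4 down to 0.04 TPM for SVEP1, and the highest elastic fibre gene, FBN1, is at 7.01 TPM.

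Of the 47 members, 33 had enough counts to be tested after NONO knockdown and 34 after PKM2 knockdown, where SVEP1 was added. The other 13 had at most 14 counts in any of the 12 libraries and were not tested. They were NID1, NID2, THBS2, SPP1, FBN2, FBLN2, EMILIN1, POSTN, BGN, DCN, LUM, IGFBP5 and MGP, several of them products typical of fibroblasts or of bone. THBS2 had 0 counts in every library, which at this depth allows up to 3 counts per library. NID2 had the highest level of the nidogens, with 6, 4 and 4 counts in NC and 5, 6 and 3 counts after NONO knockdown, and with 6, 2 and 7 counts in NC and 9, 8 and 14 counts after PKM2 knockdown. Whether these 13 genes differed was not tested, so their counts neither show nor exclude a difference.

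After PKM2 knockdown the matrix genes mostly fell, whereas after NONO knockdown they moved in both directions and by less. A gene was called where edgeR's quasi-likelihood test gave a Benjamini-Hochberg adjusted P below 0.05 over all genes tested. In the PKM2 experiment, 23 of the 34 members tested were called lower (67.6%, against 34.7% of all genes tested) and 6 were called higher (17.6%, against 33.6%). In the NONO experiment, 11 of the 33 members tested were called lower (33.3%, against 17.2%) and 8 were called higher (24.2%, against 16.2%). These shares describe genes that were chosen with earlier results of these data known, and the set itself was not tested. Across the members tested the median log2 fold change was -0.62 for PKM2 and -0.09 for NONO, beside -0.0149 and -0.0109 for all genes. The study's cutoffs for differentially expressed genes (DEGs), a change of more than 2-fold with P below 0.05 before adjustment, were applied to edgeR fits. The study's own calls were not used, so DEG counts here need not match those of the study. By these cutoffs 14 members were lower after PKM2 knockdown (41.2%, against 13.8%) and 2 were higher (5.88%, against 7.05%). Only 2 members were DEGs after NONO knockdown, both lower (6.06%, against 2.16%), whereas 0.789% of all genes were DEGs in the other direction. They were MATN2 and VCAN, of which VCAN did not pass the adjusted test. MATN3 and SVEP1 after PKM2 knockdown and VCAN after NONO knockdown reached the count minimum of the filter in all 3 libraries of their higher group only, so their entry into the test depended on the group where they were higher. Over genes that reached it in both groups, a count added after the data were seen, 22 of 31 members were called lower after PKM2 knockdown (71.0%, against 34.7% of genes) and 5 higher (16.1%, against 36.0%). Of these members 13 were DEGs lower (41.9%, against 11.1%) and 1 was a DEG higher (3.23%, against 6.13%). After NONO knockdown 11 of 32 were called lower (34.4%, against 18.1%) and 8 higher (25.0%, against 17.3%). MATN2 was the 1 DEG there, lower (3.12%, against 1.54%). Without PKM2_KD 3 again 29 members were called, and without NC 1 of the NONO experiment 20 were called against 19 with it. Shares of all genes in the fits without these libraries are not given here.

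The CPM ranges of NC and knockdown did not overlap for 22 members that were lower and 6 that were higher after PKM2 knockdown (64.7% and 17.6%, against 36.9% and 35.0% of all genes tested). After NONO knockdown the ranges were apart for 13 members that were lower and 8 that were higher (39.4% and 24.2%, against 23.5% and 22.6%). Summed over the members, TPM was between 1577 and 1649 in NC and between 1316 and 1398 after PKM2 knockdown. It was between 1551 and 1836 in NC and between 1781 and 1914 after NONO knockdown, so these ranges overlapped. In bulk RNA, fewer cells that express a gene and less RNA per cell cannot be told apart.

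**Figure D2:**
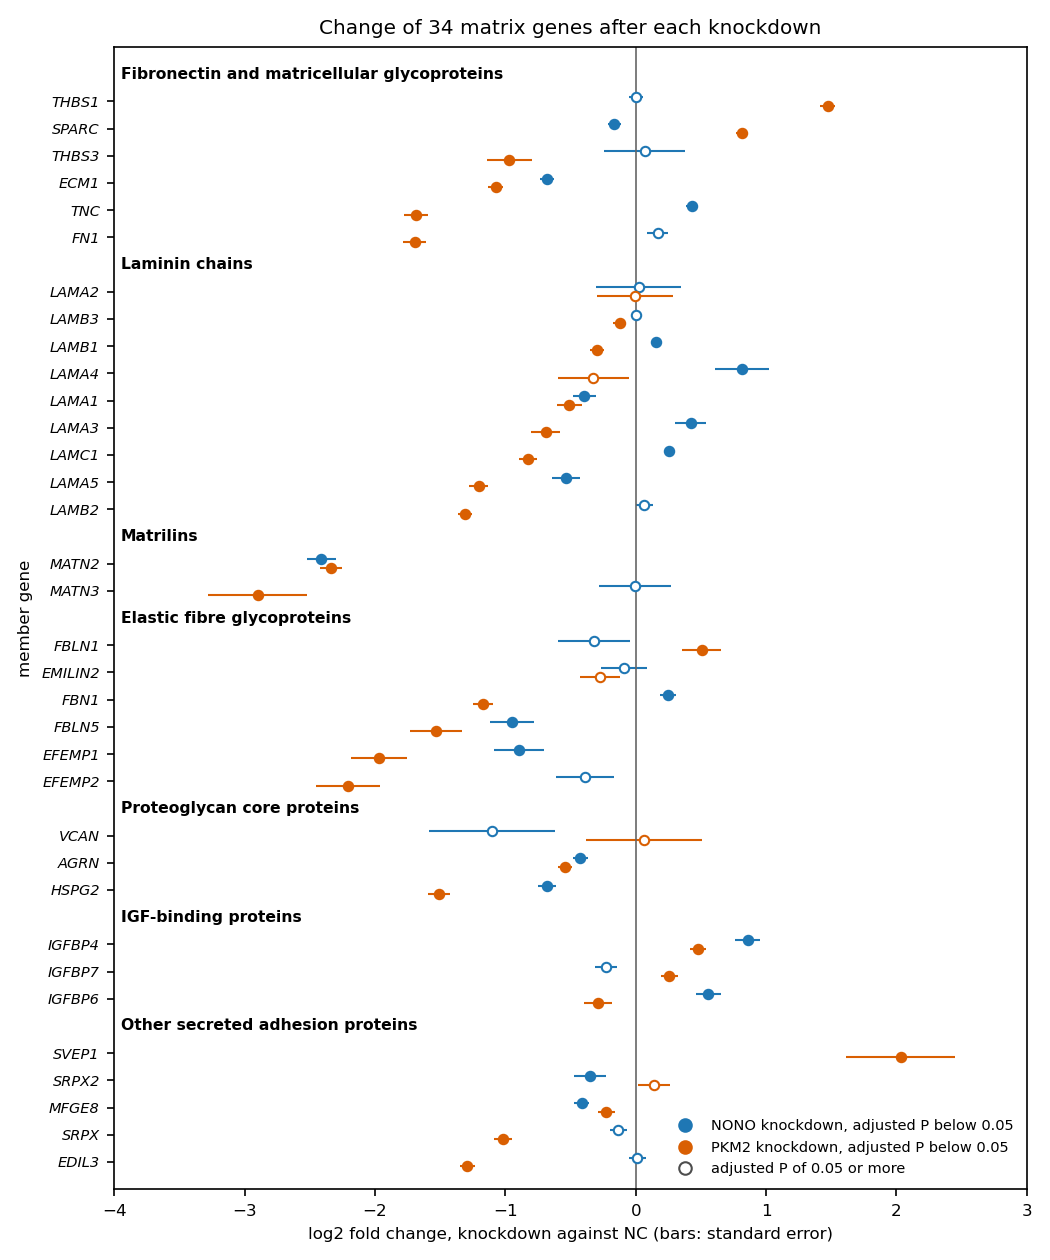
Log2 fold change of knockdown against NC (x axis, bars are standard errors from 3 libraries against 3) for the 34 members tested, by role; blue is NONO knockdown, orange is PKM2 knockdown, and filled points have an adjusted P below 0.05. After PKM2 knockdown 23 filled points lie left of 0 and 6 right of it, and after NONO knockdown 11 lie left and 8 right.

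Fibronectin and the matricellular glycoproteins moved in both directions after PKM2 knockdown. Of 6 tested, FN1, TNC, ECM1 and THBS3 fell (66.7%, against 34.7% of all genes tested). THBS1 and SPARC rose (33.3%, close to the 33.6% of all genes). After NONO knockdown ECM1 and SPARC fell (33.3%, against 17.2%) and TNC rose (16.7%, close to 16.2%). FN1, which encodes fibronectin, a fibril-forming ligand of integrins, was at 298, 382 and 377 CPM in the NC libraries of the NONO experiment and at 409, 409 and 372 CPM after NONO knockdown. FN1 in the PKM2 experiment was at 305, 296 and 312 CPM in NC and at 98.3, 106 and 78 CPM after PKM2 knockdown. The ranges overlapped in the NONO experiment, and every PKM2_KD library lay below every NC library. The FN1 log2 fold change was 0.17 (SE 0.081, edgeR adjusted P = 0.134) after NONO knockdown and -1.70 (SE 0.09, edgeR adjusted P = 1.51e-08) after PKM2 knockdown. Without the low-count filter the small NONO difference of FN1 passed the test (0.17, edgeR adjusted P = 0.00212). FN1 was lowest in NC 1 of the NONO experiment, and without that library its change was 0.073 (edgeR adjusted P = 0.125). TNC, which encodes tenascin C, an anti-adhesive glycoprotein of tumor stroma and wounds, was at 242, 252 and 264 CPM in the NC libraries of the NONO experiment and at 334, 355 and 331 CPM after NONO knockdown. TNC in the PKM2 experiment was at 175, 171 and 175 CPM in NC and at 58.6, 59.1 and 44.3 CPM after PKM2 knockdown. The TNC groups did not overlap in either experiment and moved in opposite directions. The TNC log2 fold change was 0.43 (SE 0.046, edgeR adjusted P = 4.98e-05) after NONO knockdown and -1.69 (SE 0.091, edgeR adjusted P = 1.68e-08) after PKM2 knockdown. In CPM, FN1 and TNC were lowest in PKM2_KD 3, and without it their log2 fold changes were -1.57 and -1.55 (edgeR adjusted P = 2.69e-11 and 1.33e-11). In TPM, FN1 was at 26.2, 27.6 and 30.4 in the PKM2_KD libraries and so was highest of them in PKM2_KD 3.

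THBS1, which encodes thrombospondin 1, an activator of latent TGF-beta and inhibitor of angiogenesis, was at 129, 114 and 117 CPM in the NC libraries of the NONO experiment and at 121, 123 and 116 CPM after NONO knockdown. THBS1 in the PKM2 experiment was at 112, 115 and 107 CPM in NC and at 313, 325 and 288 CPM after PKM2 knockdown. The NONO_KD libraries lay within the NC range, and the PKM2_KD libraries lay far above NC. The THBS1 log2 fold change was 0.003 (SE 0.054, edgeR adjusted P = 0.973) after NONO knockdown and 1.47 (SE 0.056, edgeR adjusted P = 1.29e-09) after PKM2 knockdown. SPARC, which encodes osteonectin, a collagen-binding matricellular protein, was at 193, 176 and 181 CPM in the NC libraries of the NONO experiment and at 166, 166 and 158 CPM after NONO knockdown. SPARC in the PKM2 experiment was at 229, 217 and 219.7 CPM in NC and at 380.3, 387 and 401 CPM after PKM2 knockdown. SPARC was lower in all NONO_KD libraries than in any NC library and higher in all PKM2_KD libraries. The SPARC log2 fold change was -0.16 (SE 0.048, edgeR adjusted P = 0.0205) after NONO knockdown and 0.81 (SE 0.046, edgeR adjusted P = 2.46e-08) after PKM2 knockdown. The NONO change of SPARC lost its call without any 1 of the 3 NONO_KD libraries or the third NC library (edgeR adjusted P between 0.0501 and 0.103). ECM1, which encodes extracellular matrix protein 1, a binder of perlecan and matrix metalloproteinase 9, was at 73.2, 69.6 and 68.4 CPM in the NC libraries of the NONO experiment and at 43, 45 and 43.5 CPM after NONO knockdown. ECM1 in the PKM2 experiment was at 79.7, 79.6 and 80.9 CPM in NC and at 36.8, 37 and 40.2 CPM after PKM2 knockdown. Both knockdowns left all of their libraries below the lowest NC library. The ECM1 log2 fold change was -0.68 (SE 0.052, edgeR adjusted P = 4.03e-06) after NONO knockdown and -1.07 (SE 0.056, edgeR adjusted P = 1.36e-08) after PKM2 knockdown. THBS3, a pentameric thrombospondin of cartilage and bone, was at 2.96, 9.2 and 6.78 CPM in the NC libraries of the NONO experiment and at 8.28, 6.41 and 5.24 CPM after NONO knockdown. THBS3 in the PKM2 experiment was at 4.98, 4.81 and 5.64 CPM in NC and at 2.2, 2.67 and 3.01 CPM after PKM2 knockdown. The NC libraries of the NONO experiment were widely spread and covered the knockdown values, whereas the PKM2 groups were apart. The THBS3 log2 fold change was 0.069 (SE 0.31, edgeR adjusted P = 0.89) after NONO knockdown and -0.97 (SE 0.17, edgeR adjusted P = 0.000332) after PKM2 knockdown. Without NC 1 of the NONO experiment, where THBS3 was lowest, its NONO change was -0.255 (edgeR adjusted P = 0.267).

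FN1 and TNC, which fell after PKM2 knockdown, and THBS1, which rose, are shown with their promoters so that the sequence before the start of each gene can be read beside its values. The sequences are from RefSeq on GRCh38.p14, run 5′ to 3′ on the gene's strand, and span 250 bases before to 50 bases after the start. Capitals mark matches, on either strand, to GGGCGG (the core bound by SP1), CAGACA (SMAD), GGAATG (TEAD) or TGANTCA (AP-1), and overlapping matches run together. The FN1 window lies at chr2:215436019-215436318 on the minus strand, the TNC window at chr9:115118108-115118407 on the minus strand and the THBS1 window at chr15:39580829-39581128 on the plus strand.
FN1: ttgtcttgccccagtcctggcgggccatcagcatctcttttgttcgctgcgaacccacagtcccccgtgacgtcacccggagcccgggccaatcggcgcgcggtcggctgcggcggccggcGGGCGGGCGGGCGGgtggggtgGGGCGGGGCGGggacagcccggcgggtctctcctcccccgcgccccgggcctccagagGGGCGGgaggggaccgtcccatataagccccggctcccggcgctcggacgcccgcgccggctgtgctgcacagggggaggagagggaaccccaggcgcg
TNC: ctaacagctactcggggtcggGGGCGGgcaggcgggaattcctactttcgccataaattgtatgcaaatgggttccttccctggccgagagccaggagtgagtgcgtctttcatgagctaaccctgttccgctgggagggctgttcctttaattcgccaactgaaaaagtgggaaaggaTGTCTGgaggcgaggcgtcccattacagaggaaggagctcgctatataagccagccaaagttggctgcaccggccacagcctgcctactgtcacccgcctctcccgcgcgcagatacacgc
THBS1: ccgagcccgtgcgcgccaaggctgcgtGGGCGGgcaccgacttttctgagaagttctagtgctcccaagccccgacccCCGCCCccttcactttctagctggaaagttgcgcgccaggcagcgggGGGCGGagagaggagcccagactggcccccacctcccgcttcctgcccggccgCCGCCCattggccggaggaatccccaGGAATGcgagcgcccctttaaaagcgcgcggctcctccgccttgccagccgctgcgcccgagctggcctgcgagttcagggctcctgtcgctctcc
The FN1 window held 6 GGGCGG matches, the TNC window held 1 GGGCGG and 1 CAGACA match, and the THBS1 window held 4 GGGCGG and 1 GGAATG match. Promoters were found for 37 of the 47 members (44 windows), of which 34 windows belonged to members tested in the PKM2 experiment. GGGCGG was in 29 of those 34 windows, against 65.2% of 15610 windows of all genes tested there. GGAATG was in 10 of 34 (against 11.4%), CAGACA in 6 of 34 (against 13.1%) and TGANTCA in 5 of 34 (against 5.5%). The median GC content of the windows was 64.3% in the members tested and 64.7% in all genes tested. A match is a description of the letters and does not show that a factor binds.

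Laminin chains moved in different directions in the experiments. All 9 chains were tested. After PKM2 knockdown 7 fell (77.8%, against 34.7% of all genes, with a median over the chains of -0.51 on the log2 scale), and LAMA2 and LAMA4 did not pass the test. After NONO knockdown LAMA3, LAMA4, LAMB1 and LAMC1 rose (44.4%, against 16.2%) and LAMA1 and LAMA5 fell (22.2%, close to the 17.2% of all genes), with a median of 0.065. Summed over the 9 chains, TPM was between 570.2 and 610.4 in NC and between 349.9 and 387.2 after PKM2 knockdown, and between 654.1 and 783.5 in NC and between 706.3 and 765.5 after NONO knockdown. LAMC1, the gamma-1 chain that most laminin trimers contain, was at 631, 651 and 652 CPM in the NC libraries of the NONO experiment and at 775, 785 and 756 CPM after NONO knockdown. LAMC1 in the PKM2 experiment was at 534, 544 and 541 CPM in NC and at 325, 323 and 267 CPM after PKM2 knockdown. LAMC1 rose in all NONO_KD libraries and fell in all PKM2_KD libraries, with no overlap. The LAMC1 log2 fold change was 0.26 (SE 0.037, edgeR adjusted P = 0.000307) after NONO knockdown and -0.82 (SE 0.069, edgeR adjusted P = 6.45e-07) after PKM2 knockdown. LAMB2, the beta-2 chain of basement membranes of muscle, nerve and kidney, was at 164, 193 and 193 CPM in the NC libraries of the NONO experiment and at 202, 192 and 182 CPM after NONO knockdown. LAMB2 in the PKM2 experiment was at 159, 162 and 169 CPM in NC and at 66.8, 68.5 and 62.4 CPM after PKM2 knockdown. The NONO groups overlapped, and the PKM2 groups were apart. The LAMB2 log2 fold change was 0.065 (SE 0.066, edgeR adjusted P = 0.489) after NONO knockdown and -1.31 (SE 0.053, edgeR adjusted P = 1.99e-09) after PKM2 knockdown. LAMA5, the alpha-5 chain of laminin-511 and laminin-521, the widespread adult laminins, was at 369.7, 526 and 495 CPM in the NC libraries of the NONO experiment and at 332, 335 and 292 CPM after NONO knockdown. LAMA5 in the PKM2 experiment was at 304, 333 and 346 CPM in NC and at 154, 144 and 128 CPM after PKM2 knockdown. LAMA5 was lower in every knockdown library than in any NC library of the same experiment. The LAMA5 log2 fold change was -0.54 (SE 0.11, edgeR adjusted P = 0.00266) after NONO knockdown and -1.21 (SE 0.071, edgeR adjusted P = 3.54e-08) after PKM2 knockdown.

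LAMA3, the alpha-3 chain of laminin-332, which anchors epithelia, was at 122, 181 and 181 CPM in the NC libraries of the NONO experiment and at 228, 213 and 207 CPM after NONO knockdown. LAMA3 in the PKM2 experiment was at 88, 93 and 99.6 CPM in NC and at 65.1, 63 and 45.7 CPM after PKM2 knockdown. The LAMA3 libraries rose above NC after NONO knockdown and lay below NC after PKM2 knockdown. The LAMA3 log2 fold change was 0.42 (SE 0.12, edgeR adjusted P = 0.0184) after NONO knockdown and -0.69 (SE 0.11, edgeR adjusted P = 0.000135) after PKM2 knockdown. The rise of LAMA3 lost its call without NONO_KD 1 (0.38, edgeR adjusted P = 0.0755) or NONO_KD 2 (0.43, edgeR adjusted P = 0.0581). Without NC 1, where LAMA3 was lowest, the rise was 0.27 (edgeR adjusted P = 2.35e-05), and without PKM2_KD 3 the LAMA3 fall was -0.54 (edgeR adjusted P = 2.38e-06). LAMA4, the alpha-4 chain of vessel and mesenchymal laminins, was at 2.21, 3.19 and 3.04 CPM in the NC libraries of the NONO experiment and at 4.09, 6.05 and 4.78 CPM after NONO knockdown. LAMA4 in the PKM2 experiment was at 1.4, 1.27 and 1.52 CPM in NC and at 1.37, 0.946 and 1.03 CPM after PKM2 knockdown. LAMA4 was higher in all NONO_KD libraries than in NC, and the PKM2 groups overlapped at a low level. The LAMA4 log2 fold change was 0.82 (SE 0.21, edgeR adjusted P = 0.0101) after NONO knockdown and -0.33 (SE 0.27, edgeR adjusted P = 0.307) after PKM2 knockdown. Without the second NONO_KD library the LAMA4 change was 0.65 (edgeR adjusted P = 0.0598), and limma did not call it (adjusted P between 0.106 and 0.24). The other chains changed less. LAMB1 had a log2 fold change of 0.16 (SE 0.043, edgeR adjusted P = 0.0164) after NONO knockdown and of -0.30 (SE 0.056, edgeR adjusted P = 0.000503) after PKM2 knockdown. The small LAMB1 rise lost its call without the first or the second NONO_KD library (edgeR adjusted P = 0.0798 and 0.0815). LAMA1 fell by 0.39 and 0.51 on the log2 scale (edgeR adjusted P = 0.00633 and 0.000577). LAMB3, the beta-3 chain of laminin-332 and an abundant chain here, changed by -0.12 (SE 0.047, edgeR adjusted P = 0.0343) after PKM2 knockdown, a call that was lost in 5 of the other analyses and without 4 of the 6 libraries.

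**Figure D3:**
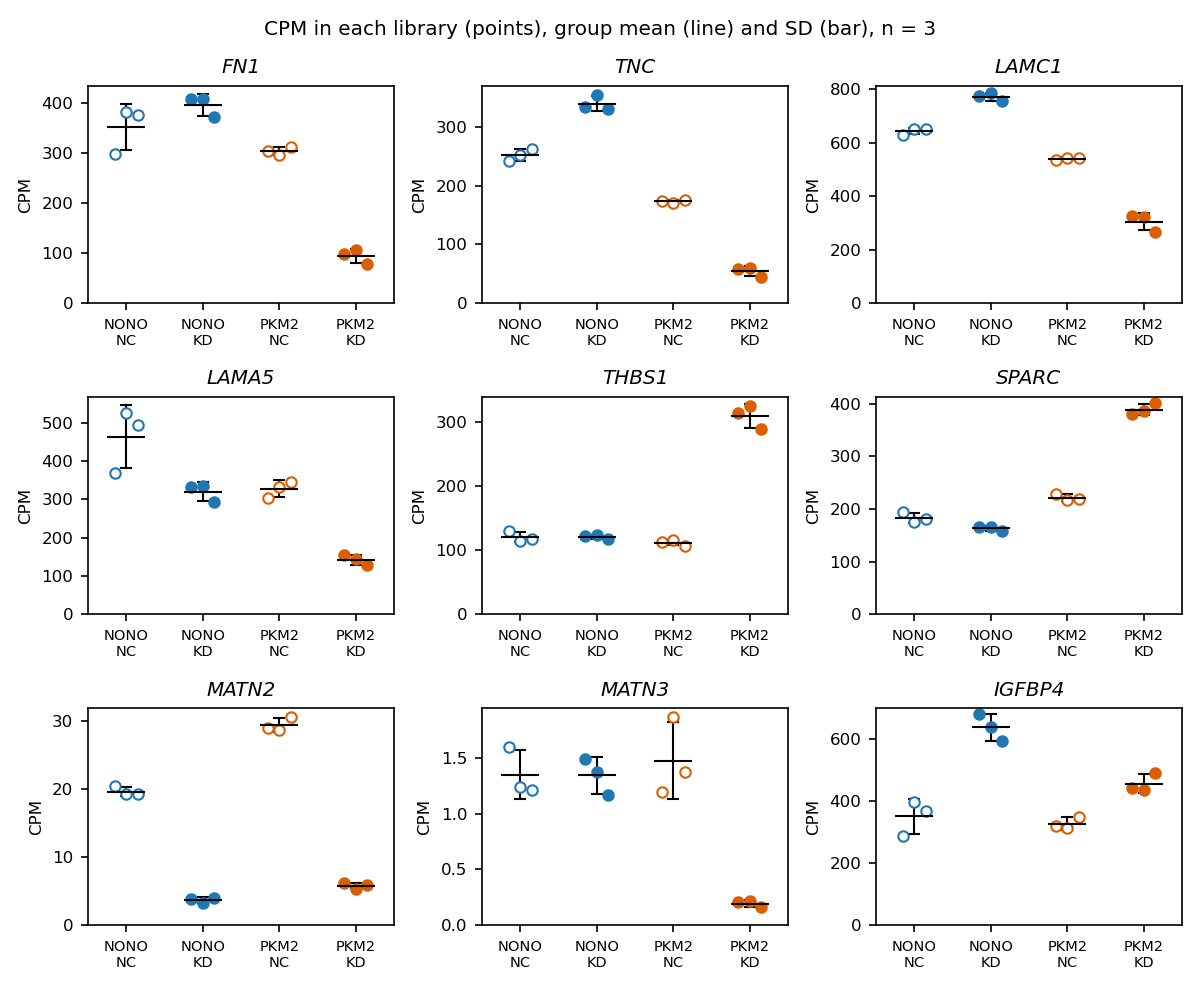
CPM of 9 members in each of the 12 libraries (points in order of replicate number, open for NC and filled for knockdown), with the mean (line) and SD (bar) of the 3 libraries per group; the axes start at 0. FN1, TNC and LAMC1 were lowest in the PKM2_KD libraries, THBS1 and SPARC were highest there, and MATN2 was low after both knockdowns.

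The 2 matrilins, adaptor proteins that link collagen fibrils and proteoglycans, both fell after PKM2 knockdown, and MATN2 also fell after NONO knockdown. MATN2, an adaptor of the matrix of connective tissue and basement membranes, was at 20.3, 19.2 and 19.2 CPM in the NC libraries of the NONO experiment and at 3.79, 3.2 and 4.02 CPM after NONO knockdown. MATN2 in the PKM2 experiment was at 28.8, 28.6 and 30.5 CPM in NC and at 6.09, 5.33 and 5.95 CPM after PKM2 knockdown. MATN2 was lower in all knockdown libraries of both experiments. The MATN2 log2 fold change was -2.41 (SE 0.11, edgeR adjusted P = 1.25e-07) after NONO knockdown and -2.34 (SE 0.086, edgeR adjusted P = 1.01e-09) after PKM2 knockdown. The MATN2 difference between the knockdowns was 0.062 (SE 0.14, edgeR adjusted P = 0.742). MATN3, a matrilin best known from cartilage, was at 1.61, 1.24 and 1.22 CPM in the NC libraries of the NONO experiment and at 1.5, 1.37 and 1.17 CPM after NONO knockdown. MATN3 in the PKM2 experiment was at 1.19, 1.87 and 1.38 CPM in NC and at 0.207, 0.215 and 0.159 CPM after PKM2 knockdown. MATN3 was low throughout, its NONO groups overlapped, and 4 to 5 counts per library were left after PKM2 knockdown against 35 to 47 in NC. MATN3 thus entered the PKM2 test through the NC group alone. The MATN3 log2 fold change was -0.005 (SE 0.27, edgeR adjusted P = 0.991) after NONO knockdown and -2.90 (SE 0.38, edgeR adjusted P = 3.02e-05) after PKM2 knockdown.

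Among the 6 elastic fibre glycoproteins tested, FBN1, FBLN5, EFEMP1 and EFEMP2 fell after PKM2 knockdown (66.7%, against 34.7% of all genes tested). FBLN1 rose (16.7%, against 33.6%). After NONO knockdown FBLN5 and EFEMP1 fell (33.3%, against 17.2%) and FBN1 rose (16.7%, close to 16.2%). FBN1, which encodes fibrillin-1, the core of microfibrils that store latent TGF-beta, was at 33.9, 37.8 and 35.7 CPM in the NC libraries of the NONO experiment and at 44, 42 and 41.7 CPM after NONO knockdown. FBN1 in the PKM2 experiment was at 34.8, 32.1 and 31.3 CPM in NC and at 15.2, 14.9 and 13.5 CPM after PKM2 knockdown. The FBN1 groups were apart in both experiments and in opposite directions. The FBN1 log2 fold change was 0.25 (SE 0.062, edgeR adjusted P = 0.00966) after NONO knockdown and -1.17 (SE 0.077, edgeR adjusted P = 8.03e-08) after PKM2 knockdown. On the TPM scale the rise of FBN1 was 0.06 with limma and was not called (adjusted P = 0.756). FBLN5, which encodes fibulin-5, an integrin ligand needed to assemble elastic fibres, was at 7.58, 8.68 and 6.5 CPM in the NC libraries of the NONO experiment and at 4.59, 3.2 and 3.97 CPM after NONO knockdown. FBLN5 in the PKM2 experiment was at 8.43, 7.98 and 9.67 CPM in NC and at 4.23, 2.41 and 2.38 CPM after PKM2 knockdown. Every knockdown library of both experiments was below the NC libraries. The FBLN5 log2 fold change was -0.95 (SE 0.17, edgeR adjusted P = 0.00142) after NONO knockdown and -1.53 (SE 0.20, edgeR adjusted P = 3.18e-05) after PKM2 knockdown. EFEMP1, which encodes fibulin-3, was at 4.62, 4.48 and 4.07 CPM in the NC libraries of the NONO experiment and at 2.84, 1.98 and 2.24 CPM after NONO knockdown. EFEMP1 in the PKM2 experiment was at 4.95, 4.92 and 4.41 CPM in NC and at 0.953, 1.07 and 1.58 CPM after PKM2 knockdown. The EFEMP1 libraries were lower than all NC libraries after either knockdown. The EFEMP1 log2 fold change was -0.90 (SE 0.19, edgeR adjusted P = 0.00383) after NONO knockdown and -1.97 (SE 0.21, edgeR adjusted P = 6.34e-06) after PKM2 knockdown. EFEMP2, which encodes fibulin-4, a partner of lysyl oxidase in elastin cross-linking, was at 4.22, 7.68 and 7.11 CPM in the NC libraries of the NONO experiment and at 5.29, 5.44 and 3.81 CPM after NONO knockdown. EFEMP2 in the PKM2 experiment was at 5.05, 4.61 and 6.42 CPM in NC and at 1.62, 1.03 and 0.832 CPM after PKM2 knockdown. The EFEMP2 groups overlapped in the NONO experiment, and the PKM2 groups were apart. The EFEMP2 log2 fold change was -0.39 (SE 0.22, edgeR adjusted P = 0.212) after NONO knockdown and -2.21 (SE 0.25, edgeR adjusted P = 7.85e-06) after PKM2 knockdown. Without NC 1 of that experiment, EFEMP2 passed the test as lower (-0.60, edgeR adjusted P = 0.00608). FBLN1, which encodes fibulin-1, had a log2 fold change of 0.51 (SE 0.15, edgeR adjusted P = 0.0101) after PKM2 knockdown, which limma did not call (adjusted P = 0.101). EMILIN2 did not pass the test in either experiment (edgeR adjusted P = 0.744 and 0.131).

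Of the 6 proteoglycan core proteins, 3 were tested, and the large heparan sulfate carriers of basement membranes fell in both experiments. HSPG2, which encodes perlecan, was at 159, 183 and 179.9 CPM in the NC libraries of the NONO experiment and at 116, 112 and 98.7 CPM after NONO knockdown. HSPG2 in the PKM2 experiment was at 156, 157 and 167 CPM in NC and at 60.7, 60.9 and 47 CPM after PKM2 knockdown. All knockdown libraries lay below the NC libraries of their experiment. The HSPG2 log2 fold change was -0.68 (SE 0.069, edgeR adjusted P = 3.35e-05) after NONO knockdown and -1.51 (SE 0.086, edgeR adjusted P = 2.71e-08) after PKM2 knockdown. AGRN, which encodes agrin, the organizer of neuromuscular synapses and a partner of dystroglycan, was at 310.2, 354 and 346 CPM in the NC libraries of the NONO experiment and at 264, 254 and 235 CPM after NONO knockdown. AGRN in the PKM2 experiment was at 266, 253 and 276 CPM in NC and at 190.1, 179 and 177 CPM after PKM2 knockdown. AGRN was likewise below NC in all knockdown libraries. The AGRN log2 fold change was -0.43 (SE 0.058, edgeR adjusted P = 0.000259) after NONO knockdown and -0.54 (SE 0.051, edgeR adjusted P = 1.68e-06) after PKM2 knockdown. The AGRN difference between the knockdowns was -0.13 (SE 0.08, edgeR adjusted P = 0.184) and that of HSPG2 was -0.85 (SE 0.12, edgeR adjusted P = 1.25e-05). VCAN, which encodes the chondroitin sulfate proteoglycan versican, had 11 to 16 counts in the NC libraries and 3 to 10 counts after NONO knockdown, a log2 fold change of -1.10 (SE 0.48, edgeR adjusted P = 0.103), and entered the NONO test through NC alone. After PKM2 knockdown the VCAN log2 fold change was 0.065 (SE 0.45, edgeR adjusted P = 0.906).

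Of the 4 insulin-like growth factor binding proteins, 3 were tested. IGFBP4 rose in both experiments, IGFBP6 rose after NONO knockdown and fell after PKM2 knockdown, and IGFBP7 rose after PKM2 knockdown. IGFBP4, an inhibitor of IGF signalling that the protease PAPP-A cleaves, was at 287, 397 and 369 CPM in the NC libraries of the NONO experiment and at 680.3, 639 and 594 CPM after NONO knockdown. IGFBP4 in the PKM2 experiment was at 320.2, 313 and 350.0 CPM in NC and at 441, 437 and 491 CPM after PKM2 knockdown. IGFBP4 was higher in every knockdown library than in any NC library of its experiment. The IGFBP4 log2 fold change was 0.86 (SE 0.096, edgeR adjusted P = 6.32e-05) after NONO knockdown and 0.48 (SE 0.06, edgeR adjusted P = 2.11e-05) after PKM2 knockdown. The IGFBP4 difference between the knockdowns was -0.40 (SE 0.12, edgeR adjusted P = 0.0129), the rise being larger after NONO knockdown. IGFBP4 was lowest in NC 1 of the NONO experiment, and without that library the difference was -0.26 (edgeR adjusted P = 0.0216). IGFBP6, which prefers IGF-II, had log2 fold changes of 0.56 (SE 0.096, edgeR adjusted P = 0.00108) and -0.29 (SE 0.10, edgeR adjusted P = 0.0275). Its fall after PKM2 knockdown lost the call without any 1 of 4 libraries, namely NC 1, NC 3, PKM2_KD 1 or PKM2_KD 2 (edgeR adjusted P between 0.0509 and 0.134). IGFBP7, which is also a heparin-binding matrix protein, had log2 fold changes of -0.23 (SE 0.085, edgeR adjusted P = 0.0602) and 0.26 (SE 0.064, edgeR adjusted P = 0.00356). Without the first or the third NC library of the NONO experiment IGFBP7 passed the test as lower (edgeR adjusted P = 0.0238 and 0.0305). Limma did not call the IGFBP7 rise after PKM2 knockdown (adjusted P between 0.0794 and 0.0898).

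Among the other secreted adhesion proteins, EDIL3, SRPX and MFGE8 fell and SVEP1 rose after PKM2 knockdown, and MFGE8 and SRPX2 fell after NONO knockdown. EDIL3, an integrin ligand that is related to MFGE8, was at 78.5, 89.6 and 90.1 CPM in the NC libraries of the NONO experiment and at 93, 83.1 and 84.3 CPM after NONO knockdown. EDIL3 in the PKM2 experiment was at 76.6, 77.3 and 80.9 CPM in NC and at 31.7, 33.4 and 30.8 CPM after PKM2 knockdown. EDIL3 overlapped in the NONO experiment and was below NC in all PKM2_KD libraries. The EDIL3 log2 fold change was 0.012 (SE 0.065, edgeR adjusted P = 0.909) after NONO knockdown and -1.29 (SE 0.057, edgeR adjusted P = 3.8e-09) after PKM2 knockdown. MFGE8, which encodes lactadherin, a bridge between phosphatidylserine and integrins, was at 65.9, 73.8 and 71.4 CPM in the NC libraries of the NONO experiment and at 53.3, 55.1 and 50.1 CPM after NONO knockdown. MFGE8 in the PKM2 experiment was at 69.5, 74.6 and 80.7 CPM in NC and at 60.9, 64.3 and 66.9 CPM after PKM2 knockdown. MFGE8 was lower in all knockdown libraries of both experiments. The MFGE8 log2 fold change was -0.41 (SE 0.059, edgeR adjusted P = 0.000334) after NONO knockdown and -0.23 (SE 0.065, edgeR adjusted P = 0.00899) after PKM2 knockdown. Without the third NC library of the PKM2 experiment the MFGE8 fall was -0.17 (edgeR adjusted P = 0.054), and limma did not call it (adjusted P between 0.0645 and 0.142). SRPX, a sushi-repeat protein, was at 31.9, 34.1 and 34.2 CPM in the NC libraries of the NONO experiment and at 31, 29 and 31.4 CPM after NONO knockdown. SRPX in the PKM2 experiment was at 31.5, 29.2 and 30.4 CPM in NC and at 15.2, 14.3 and 15.4 CPM after PKM2 knockdown. SRPX did not overlap in either experiment, but the NONO difference did not pass the test. The SRPX log2 fold change was -0.13 (SE 0.065, edgeR adjusted P = 0.143) after NONO knockdown and -1.02 (SE 0.071, edgeR adjusted P = 1.32e-07) after PKM2 knockdown.

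SVEP1, a large adhesion protein with sushi and pentraxin domains, had 7, 4 and 14 counts in NC and 29, 35 and 26 counts after PKM2 knockdown, with a log2 fold change of 2.03 (SE 0.42, edgeR adjusted P = 0.000974). It passed the low-count filter through the PKM2_KD group, where it was higher. Limma on log2(TPM + 1) without a filter gave SVEP1 a change of 0.119 and did not call it (adjusted P = 0.0646). In the NONO experiment SVEP1 had 5, 7 and 8 counts in NC and 11, 12 and 7 counts after knockdown and was not tested. SRPX2, a ligand of the urokinase receptor, had log2 fold changes of -0.35 (SE 0.12, edgeR adjusted P = 0.0452) and 0.14 (SE 0.12, edgeR adjusted P = 0.328). The NONO call of SRPX2 was lost without 5 of the 6 libraries (edgeR adjusted P between 0.0502 and 0.173), in the DESeq2 test, without the low-count filter and with limma.

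The difference between the knockdowns (the PKM2 log2 fold change minus the NONO log2 fold change) was tested with an interaction term in a single edgeR model of all 12 libraries. Of the 34 members tested, 19 had a difference below 0 (55.9%, against 27.4% of all genes tested) and 5 above 0 (14.7%, against 25.7%). TNC, the fall of which met a rise after NONO knockdown, had a difference of -2.13 (SE 0.11, edgeR adjusted P = 7.24e-11), FN1 one of -1.88 (SE 0.13, edgeR adjusted P = 4.1e-09), MATN3 one of -2.91 (SE 0.46, edgeR adjusted P = 4.49e-05) and EFEMP2 one of -1.83 (SE 0.36, edgeR adjusted P = 0.000324). Differences of LAMB2, LAMC1, LAMA3 and LAMA4 were -1.39, -1.10, -1.13 and -1.16 (edgeR adjusted P = 1.06e-09, 8.61e-09, 5.34e-05 and 0.00643). THBS1 and SPARC differed in the other direction, with 1.46 (SE 0.083, edgeR adjusted P = 2.76e-10) and 0.96 (SE 0.068, edgeR adjusted P = 3.52e-09). In the separate fits, 9 of 33 members tested in both were called lower in both experiments (27.3%, against 9.93% of all genes) and 1 was called higher in both (3.03%, against 9.34%). The 9 were LAMA1, LAMA5, MATN2, FBLN5, EFEMP1, ECM1, AGRN, HSPG2 and MFGE8, and the 1 was IGFBP4. Another 7 were called in opposite directions (21.2%, against 7.97%), of which LAMA3, LAMB1, LAMC1, TNC, FBN1 and IGFBP6 were higher after NONO knockdown and SPARC was lower. Without the first or the second NONO_KD library this count was 4. With limma on log2(TPM + 1) it was 3, since LAMA3, LAMB1, FBN1 and SPARC then missed the test in the NONO experiment (adjusted P = 0.103, 0.883, 0.756 and 0.29). Limma did not call the LAMA4 difference (adjusted P between 0.132 and 0.264). The SRPX2 difference of 0.48 (SE 0.17, edgeR adjusted P = 0.0268) lost its call without any 1 of 4 libraries (edgeR adjusted P between 0.0547 and 0.0803), without the low-count filter (0.0572) and with limma, where it was at most 0.061. The difference of THBS3 lost its call without any 1 of 5 libraries (edgeR adjusted P between 0.0522 and 0.107), and that of FBLN1 without any 1 of 6 (edgeR adjusted P between 0.0523 and 0.117). Without NC 1 of the NONO experiment the THBS3 difference was -0.708 (edgeR adjusted P = 0.0386). For FBLN5 the difference of -0.60 (SE 0.28, edgeR adjusted P = 0.0855) passed the test without the first PKM2_KD library (-0.92, edgeR adjusted P = 0.00509).

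**Figure D4:**
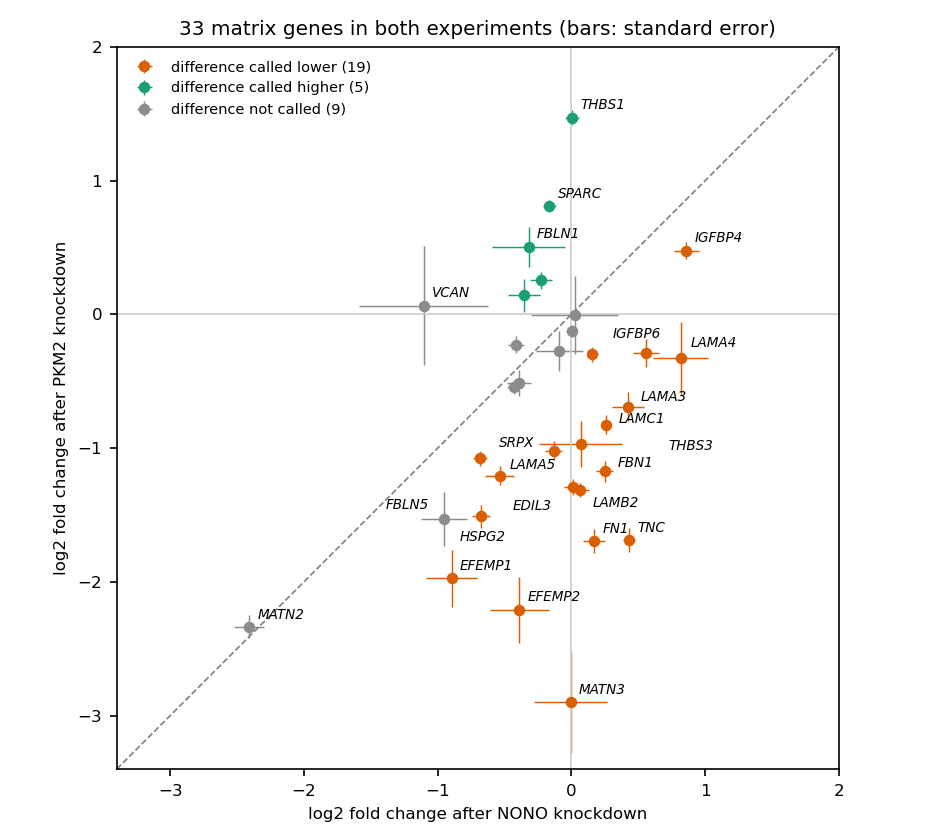
Log2 fold change after NONO knockdown (x axis) and after PKM2 knockdown (y axis) of the 33 members tested in both experiments, with standard errors as bars; the dashed line marks equal change and colour the call of the difference. The 19 orange points lie below the line and the 5 green points above it, and MATN2 lies close to it at -2.41 and -2.34.

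The members were longer than most genes, a feature that the choice by name did not use. Their median length in the tables was 5692 bases among the 33 tested after NONO knockdown, against 2923 bases for all genes, and 23 of them were longer than that median. In the PKM2 experiment the shortest 777 genes had a median log2 fold change of 0.0954 and the longest 777 one of -0.12, so length moved with the change. With this trend taken out 28 members were called after PKM2 knockdown against 29, and 19 were called after NONO knockdown as before. The counts were made with hg19 by the processing notes, whereas exons and promoters here are from GRCh38, so genes were matched by identifier or symbol and not by position. In GENCODE 29, exons of THBS3, SRPX2, IGFBP7, HSPG2 and LAMA1 shared 22.2%, 17.2%, 14.0%, 11.7% and 10.3% of their bases with a gene on the other strand. The library kit is not described as keeping strand, so reads there could come from either gene. For SPARC, THBS1 and EDIL3 these shares were 7.9%, 4.9% and 3.0%, and for NID2, which was not tested, 30.0%.

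Other genes of the same pathways were read in the same fits. These lists too were chosen with earlier results of these data known, and no list was tested as a set. Of 48 further matrix glycoproteins 24 were tested, and after PKM2 knockdown 16 were called lower and 5 higher, against 9 lower and 3 higher after NONO knockdown. These were 66.7% and 20.8% after PKM2 knockdown (34.7% and 33.6% of all genes) and 37.5% and 12.5% after NONO knockdown (17.2% and 16.2% of all genes). FBLN7, which encodes fibulin-7, went from 4.9 ± 0.356 to 2.52 ± 0.832 CPM after NONO knockdown, a log2 fold change of -0.95 (SE 0.23, edgeR adjusted P = 0.00768), and from 3.61 ± 0.145 to 0.404 ± 0.178 CPM after PKM2 knockdown, with a log2 value of -3.16 (SE 0.30, edgeR adjusted P = 2.07e-06). VWA1, a partner of perlecan in basement membranes, went from 9.88 ± 0.692 to 4.88 ± 1.21 CPM after NONO knockdown, a log2 fold change of -1.02 (SE 0.16, edgeR adjusted P = 0.000709), and from 10.8 ± 0.656 to 1.97 ± 0.522 CPM after PKM2 knockdown, with a log2 value of -2.45 (SE 0.17, edgeR adjusted P = 1.37e-07). IGFBP2, another IGF-binding protein, went from 1.51 ± 0.301 to 0.504 ± 0.146 CPM after NONO knockdown, a log2 fold change of -1.57 (SE 0.34, edgeR adjusted P = 0.00456), and from 1.35 ± 0.244 to 0.219 ± 0.145 CPM after PKM2 knockdown, with a log2 value of -2.59 (SE 0.44, edgeR adjusted P = 0.000233). All 3 were lower after both knockdowns. After PKM2 knockdown FBLN7 had 12, 12 and 5 counts and IGFBP2 had 9, 2 and 5. After NONO knockdown IGFBP2 had 13, 7 and 10 counts. In these comparisons the count minimum of the filter was reached in all 3 libraries of NC only. The entry of FBLN7 and IGFBP2 into those tests thus depended on the group where they were higher. Among 30 further genes listed as proteoglycan core proteins, including the HAPLN link proteins, 11 were tested. After PKM2 knockdown 6 were lower and 4 higher, and after NONO knockdown 7 were lower and 3 higher. Set against the same shares of all genes, these were 54.5% and 36.4%, the latter close to all genes, and 63.6% and 27.3%. SDC3, which encodes the cell-surface heparan sulfate proteoglycan syndecan-3, went from 56.1 ± 3.52 to 49.8 ± 1.38 CPM after NONO knockdown, a log2 fold change of -0.17 (SE 0.059, edgeR adjusted P = 0.0458), and from 57.9 ± 0.813 to 19.7 ± 1.15 CPM after PKM2 knockdown, with a log2 value of -1.55 (SE 0.063, edgeR adjusted P = 1.88e-09). SDC4, which encodes syndecan-4, a co-receptor for fibronectin, went from 92.8 ± 1.34 to 133 ± 1.87 CPM after NONO knockdown, a log2 fold change of 0.52 (SE 0.041, edgeR adjusted P = 5.37e-06), and from 98.7 ± 1.48 to 276 ± 3.6 CPM after PKM2 knockdown, with a log2 value of 1.48 (SE 0.044, edgeR adjusted P = 2.63e-10). SPOCK1, which encodes testican-1, went from 2.89 ± 0.15 to 3.92 ± 0.383 CPM after NONO knockdown, a log2 fold change of 0.44 (SE 0.17, edgeR adjusted P = 0.0694), and from 2.48 ± 0.285 to 6.52 ± 0.536 CPM after PKM2 knockdown, with a log2 value of 1.39 (SE 0.16, edgeR adjusted P = 8.08e-06). Syndecan-3 thus fell and syndecan-4 rose in both experiments.

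Of 32 enzymes that build or modify glycosaminoglycan chains 28 were tested, with 14 lower and 5 higher after PKM2 knockdown and 6 lower and 6 higher after NONO knockdown. The 14 of 28 lower and the 17.9% higher after PKM2 knockdown stand beside 34.7% and 33.6% of all genes, and the shares after NONO knockdown were 21.4% each, near the 17.2% and 16.2% of all genes. CHSY3, a chondroitin sulfate synthase, went from 5.54 ± 0.0911 to 2.83 ± 0.509 CPM after NONO knockdown, a log2 fold change of -0.97 (SE 0.17, edgeR adjusted P = 0.00127), and from 5.05 ± 0.428 to 0.442 ± 0.0751 CPM after PKM2 knockdown, with a log2 value of -3.50 (SE 0.23, edgeR adjusted P = 7.77e-08). CHPF, a chondroitin polymerizing factor, went from 73.4 ± 3.31 to 55.1 ± 1.29 CPM after NONO knockdown, a log2 fold change of -0.41 (SE 0.052, edgeR adjusted P = 0.00015), and from 59.6 ± 2.97 to 12.9 ± 0.987 CPM after PKM2 knockdown, with a log2 value of -2.21 (SE 0.074, edgeR adjusted P = 5.04e-10). CSGALNACT2, which starts chondroitin chains, went from 96 ± 3.59 to 126 ± 4.88 CPM after NONO knockdown, a log2 fold change of 0.39 (SE 0.048, edgeR adjusted P = 0.000118), and from 84 ± 3.09 to 223 ± 7.29 CPM after PKM2 knockdown, with a log2 value of 1.41 (SE 0.05, edgeR adjusted P = 8.37e-10). All 14 genes of a list of laminin and fibronectin receptors, CD44 and CD47 included, were tested. After PKM2 knockdown 10 were lower and 1 was higher, and after NONO knockdown 3 were lower and 5 higher. These were 71.4% and 7.14% after PKM2 knockdown, and 21.4%, near all genes, and 35.7% after NONO knockdown. ITGA7, a laminin-binding integrin alpha subunit, went from 5.01 ± 0.839 to 1.63 ± 0.54 CPM after NONO knockdown, a log2 fold change of -1.61 (SE 0.25, edgeR adjusted P = 0.000496), and from 6.17 ± 0.821 to 1.39 ± 0.172 CPM after PKM2 knockdown, with a log2 value of -2.15 (SE 0.19, edgeR adjusted P = 8.71e-07). ITGB4, the integrin beta subunit of hemidesmosomes that binds laminin-332, went from 15.8 ± 8 to 30.1 ± 2.78 CPM after NONO knockdown, a log2 fold change of 0.93 (SE 0.28, edgeR adjusted P = 0.0273), and from 9.76 ± 1.29 to 2.36 ± 0.272 CPM after PKM2 knockdown, with a log2 value of -2.05 (SE 0.16, edgeR adjusted P = 2.89e-07). DAG1, which encodes dystroglycan, the receptor for laminin, agrin and perlecan, went from 154 ± 4.41 to 173 ± 6.62 CPM after NONO knockdown, a log2 fold change of 0.16 (SE 0.045, edgeR adjusted P = 0.0171), and from 149 ± 6.49 to 41 ± 3.47 CPM after PKM2 knockdown, with a log2 value of -1.86 (SE 0.067, edgeR adjusted P = 8.45e-10). ITGB4 and DAG1 moved in opposite directions in the experiments, as LAMA3, LAMB1 and LAMC1 did, and ITGA7 fell in both. The NC libraries of the NONO experiment were widely spread for ITGB4, and its change without NC 1 is not given here. The rises of LAMA3 and LAMB1 lost their call without the first or the second NONO_KD library, as given above.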

How the data were processed

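Poly(A)-selected RNA of 12 MDA-MB-231 libraries was sequenced in pairs of 150-base reads. Per the submitters' processing notes, the authors used fastp, HISAT2, StringTie and RSEM with hg19 (versions are not given in the sources used here) and deposited, for each experiment, a table of estimated counts (RSEM expected counts) and TPM per gene. Fold changes and P values of the authors in these tables were not used.

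The estimated counts were rounded and tested with edgeR 4.0.16 in R 4.3.3 (TMM, filterByExpr, quasi-likelihood test, Benjamini-Hochberg adjustment over 14832 genes in the NONO experiment, 15524 in the PKM2 experiment and 15995 for the interaction). CPM is after TMM normalization. The deposited TPM were used for levels and for limma 3.58.1, and DESeq2 1.42.0, RLE factors, no filter, a length correction in 20 bins, a replicate block and leaving out each library were alternatives. Fits were tested on simulated data. Estimated counts can split reads between overlapping genes, and intervals of depth cover counting error only. Libraries were grouped by their titles.

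The members and lists were chosen with earlier results of these data known. Full values are given for members called with an absolute log2 fold change of at least 1 or a called difference of at least 1, and for the highest member of each role. From each other list at most 3 genes with the largest called change are named. Promoter sequences are from RefSeq, and protein sequences were not used here.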

Additional observations from a re-analysis of the deposited data

Results flagged for a closer look

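For 24 of the 34 members tested the response to PKM2 knockdown differed from the response to NONO knockdown, by edgeR's interaction test over the 12 libraries at an adjusted P below 0.05. Of these, 19 differences lay below 0 (55.9% of members tested, against 27.4% of all genes tested) and 5 above 0 (14.7%, against 25.7%). The values are log2 differences, the PKM2 fold change minus the NONO fold change. Among the laminin chains they were LAMA3 -1.13, LAMA4 -1.16, LAMA5 -0.68, LAMB1 -0.47, LAMB2 -1.39 and LAMC1 -1.10. Fibronectin and the matricellular genes had FN1 -1.88, TNC -2.13, THBS3 -1.05, ECM1 -0.41, THBS1 1.46 and SPARC 0.96. Elastic fibre genes had FBN1 -1.44, EFEMP1 -1.09, EFEMP2 -1.83 and FBLN1 0.81. The others were MATN3 -2.91, HSPG2 -0.85, IGFBP4 -0.40, IGFBP6 -0.86, IGFBP7 0.47, SRPX -0.90, SRPX2 0.48 and EDIL3 -1.32. The calls of THBS3, FBLN1 and SRPX2 were lost when certain single libraries were left out, as given above. No library is shared between the experiments, so the knockdown and the experiment cannot be told apart in these differences.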

How the results depend on the processing

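With DESeq2, with edgeR's RLE normalization, no low-count filter, or the length trend removed, every count of called members stayed within 1.5 times its value, except that 1 member was a DEG after NONO knockdown with DESeq2. Limma on log2(TPM + 1), without a filter, called 10 members after NONO knockdown (4 higher, 6 lower), 15 for the difference between the knockdowns (12 lower, 3 higher) and 4 as lower in both experiments. All 3 limma analyses, which also used log2(TPM + 0.1) and log2(TPM + 1) with a filter at a mean TPM of 1, called 4 members higher after NONO knockdown, 3 higher after PKM2 knockdown, 3 with a difference above 0 and 3 in opposite directions. With a pseudocount of 1 they counted 1 member DEG after NONO knockdown. The cause was not tested. No shared effect of the replicate number was seen, and the labels do not say whether same-numbered libraries were paired. Correlations of same-numbered deviations were -0.065, 0.036 and -0.043 in the NONO experiment and -0.065, 0.006 and 0.012 in the PKM2 experiment. Not every sample correlated best with its own number. With the replicate number as a block 18 members were called after NONO knockdown, 28 after PKM2 knockdown and 24 for the difference, and 1 member was a DEG after NONO knockdown. Leaving out 1 library at a time, the called members ranged from 14 to 20 after NONO knockdown (5 to 8 higher, 9 to 12 lower), with 1 to 3 DEGs, and from 27 to 29 after PKM2 knockdown (6 higher, 21 to 23 lower), with 15 to 17 DEGs. The members that differed between the knockdowns ranged from 22 to 25 (3 to 6 above 0, 18 to 20 below), those lower in both experiments from 8 to 10 and those in opposite directions from 4 to 8. The lowest values came without the second NONO_KD library for the 5 higher, without the first PKM2_KD library for the 3 differences above 0, and without the first or second NONO_KD library for the 4 in opposite directions. Among the values of single members, 38 lost and 8 gained their call when a library was left out, 58 lost and 3 gained it under the other alternatives, and 735 and 695 stayed on the same side. The sign turned 29 times with a library left out and 28 times otherwise, in values that were not called in either analysis. Leaving out 1 library, the log2 fold changes after NONO knockdown ran for LAMA2 from -0.17 to 0.24, LAMB3 from -0.016 to 0.034, THBS1 from -0.027 to 0.069, THBS3 from -0.26 to 0.45, MATN3 from -0.087 to 0.14, EMILIN2 from -0.20 to 0.030, EDIL3 from -0.040 to 0.052. After PKM2 knockdown they ran for LAMA2 from -0.21 to 0.098, VCAN from -0.41 to 0.36, and the differences ran for LAMA2 from -0.25 to 0.15, MATN2 from -0.028 to 0.13. With DESeq2 the turned values were MATN3 0.001 after NONO knockdown and LAMA2 0.011 after PKM2 knockdown. With RLE normalization the turned values were MATN3 0.002 after NONO knockdown and LAMA2 0.007 after PKM2 knockdown. With the length trend removed the turned values were MATN3 0.005 after NONO knockdown and LAMA2 0.11 after PKM2 knockdown and LAMA2 0.028 for the difference. With limma on log2(TPM + 1) the turned values were LAMB2 -0.006, LAMB3 -0.012, FBLN1 0.015, EDIL3 -0.005 after NONO knockdown and SRPX2 -0.21 after PKM2 knockdown and LAMA1 0.032, MATN2 -0.034 for the difference. Without its filter the turned values were LAMB2 -0.006, LAMB3 -0.012, FBLN1 0.015, EDIL3 -0.005 after NONO knockdown and LAMA2 0.046, SRPX2 -0.21 after PKM2 knockdown and LAMA1 0.032, MATN2 -0.034 for the difference. With limma on log2(TPM + 0.1) the turned values were LAMB2 -0.006, LAMB3 -0.012, FBLN1 0.005, EDIL3 -0.005 after NONO knockdown and SRPX2 -0.27 after PKM2 knockdown and LAMA1 0.022 for the difference. Over genes that reached the count minimum in both groups, a count added after the data were seen, 1 member was a DEG after NONO knockdown. It was lower (3.12% of members, against 1.54% of genes). Shares of all genes under the other alternatives are not given here. Counts of 14 or fewer in any library set what could be seen in 13 members.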
